A study of Mus musculus with 19 samples.

Results

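Plexins are single-pass transmembrane receptors for semaphorins, and the 9 plexin genes of the mouse (Plxna1, Plxna2, Plxna3, Plxna4, Plxnb1, Plxnb2, Plxnb3, Plxnc1 and Plxnd1) were followed here in RGCs, the neurons whose axons leave the eye through the optic nerve. The members were all genes of the deposited RNA-seq counts whose Ensembl identifier carries one of these 9 symbols in the GRCm38 annotation, 9 of the 47069 genes listed. GFP-positive cells had been sorted by flow cytometry from dissociated retinas of E16.5 embryos, in 3 libraries of RGCs projecting to the same side of the brain (ipsilateral, iRGCs) and 3 of RGCs projecting to the other side (contralateral, cRGCs). The iRGCs came from embryos of the ET33 Sert-Cre line, in which Cre is driven by Slc6a4, the serotonin transporter gene. The cRGCs came from Pou4f2-Cre embryos, in which Cre was inserted into the Brn3b (Pou4f2) locus, after the ventrotemporal retina had been cut away. All 6 libraries carried a Cre driver and the Sun1-GFP reporter in the Rosa26 locus, which is switched on by removal of a stop cassette and stays on in the descendants of a cell. The strain was C57/DBA F1, the genotype is labelled WT and embryos of both sexes were pooled. The number of embryos behind a library is not given in the sources used here, so p-values measure the spread between these libraries, which may be technical. Driver, embryo line and dissected region differ together between iRGCs and cRGCs and cannot be told apart.

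In each library 28193178 to 33638083 reads fell on genes, and the 9 plexins together took 0.147% to 0.191% of them. Levels are given as CPM, the counts scaled to a common library size after TMM normalization, and differences as the log2 fold change of iRGCs over cRGCs from a two-sided quasi-likelihood test in edgeR, with its SE. Genes with a Benjamini-Hochberg adjusted p below 0.1, over 15941 tested genes, were counted as higher or lower in iRGCs, and as DEGs where the absolute log2 fold change was also above 1.

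On binding a semaphorin, a plexin acts through an intracellular GTPase-activating domain on small GTPases of the Ras family, and the growth cone turns, collapses or, in some settings, advances. Class A plexins bind secreted class 3 semaphorins together with neuropilins and bind class 6 semaphorins directly. Class B plexins are receptors of class 4 semaphorins and signal to RhoA, Plxnc1 binds Sema7a, and Plxnd1 binds Sema3e and is best known from blood vessels. At the optic chiasm, Plxna1 is known to act with the adhesion molecule Nrcam and with Sema6d in the crossing of contralateral axons. The comparison of iRGCs with cRGCs asks which of these receptors are transcribed at different levels in neurons that avoid and neurons that cross the midline.

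The libraries were first checked against their labels. Zic2, the transcription factor that defines iRGCs, was at 133, 173 and 157 CPM in iRGC replicates 1, 2 and 3 and at 57.0, 60.2 and 65.7 CPM in cRGC replicates 1, 2 and 3, so that every iRGC library lay above every cRGC library. Slc6a4 itself, whose promoter drives Cre in the iRGC line, was at 2.06, 33.4 and 116 CPM in iRGCs and at 48.1, 35.4 and 30.5 CPM in cRGCs. It did not pass the test (log2 fold change 0.41, adjusted p = 0.768 by edgeR and Benjamini-Hochberg), and in the library labelled iRGC replicate 1 it lay under every cRGC library. The log2 fold changes of the plexins that passed the test are therefore also given without that library.

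The general RGC markers were not at equal levels. Of 12 markers, 11 were lower in iRGCs and none was higher, beside 23.1% lower and 23.3% higher of all tested genes, with summed levels of 2146, 3018 and 4623 CPM in iRGCs against 12204, 10826 and 13522 CPM in cRGCs. Their most abundant gene was Nefm, a neurofilament subunit. Of 16 markers of retinal progenitors, 15 were higher in iRGCs and none was lower, beside the same shares of all tested genes, with sums of 10902, 9662 and 8609 CPM against 1821, 3077 and 2417 CPM. Ccnd1, the cyclin that drives progenitors through G1, led this list with 3362, 2649 and 2520 CPM in iRGCs and 277, 779 and 471 CPM in cRGCs. In bulk samples such as these, fewer cells of a type and less RNA per cell cannot be told apart. Both lists moved with the population in every comparison below, and their part in the plexin results was not tested.

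Among the class A plexins, Plxna1 and Plxna3 were the members that differed, and both were lower in iRGCs. Plxna1 (GRCm38, chromosome 6, 89316314 to 89362620, minus strand) was at 207, 205 and 229.7 CPM in iRGC replicates 1, 2 and 3, and at 517, 414 and 493 CPM in the cRGC replicates. The highest iRGC library thus stayed well under the lowest cRGC library. The log2 fold change was -1.15 with an SE of 0.117 (adjusted p = 2.33e-04 by edgeR and Benjamini-Hochberg), which is 2.22-fold higher in cRGCs with a 95% interval of 1.85 to 2.66. The counts of Plxna1 carry one uncertainty, since 10.7% of its exonic bases are shared with Gm26811 on the opposite strand and the strand setting of the counting is not stated.

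Plxna3 (chromosome X, 74329066 to 74344689, plus strand), which shares no exonic base with another gene, was at 150.5, 202 and 214 CPM in iRGCs and at 521, 426 and 486 CPM in cRGCs. The populations did not overlap here either, and iRGC replicate 1 was the lowest library. Its log2 fold change was -1.34 with an SE of 0.150 (adjusted p = 2.85e-04 by edgeR and Benjamini-Hochberg), a level 2.53-fold higher in cRGCs (95% interval 2.00 to 3.20). Without iRGC replicate 1, the log2 fold changes were -1.13 for Plxna1 (adjusted p = 0.00106) and -1.20 for Plxna3 (adjusted p = 8.56e-04 by edgeR and Benjamini-Hochberg). Of the 9 plexins, these were the DEGs with lower levels in iRGCs, but Plxna1 was no longer one on library totals without TMM, where its log2 fold change was -0.94, or in a test of the fold change against 1.

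The other members of class A did not follow this pattern. Plxna2 (chromosome 1, 194618218 to 194816869, plus strand), a receptor of class 6 semaphorins, was at 82.1, 72.7 and 95.5 CPM in iRGCs and at 71.4, 70.6 and 39.4 CPM in cRGCs. Every iRGC library was above every cRGC library, but by little except for cRGC replicate 3. The log2 fold change of 0.47 (SE 0.223, 95% interval -0.04 to 0.97) did not pass the test, with an adjusted p of 0.135 (by edgeR and Benjamini-Hochberg). It passed under limma voom (adjusted p = 0.0722), without the filter on low counts (adjusted p = 0.0854), with at least 10 counts in every library (adjusted p = 0.0978) without cRGC replicate 2 (adjusted p = 0.0907) and on library totals without TMM (adjusted p = 0.0380, all Benjamini-Hochberg), and over all alternatives its adjusted p lay between 0.0380 and 0.305. Plxna4 (chromosome 6, 32144268 to 32588192, minus strand), a partner of neuropilins in the Sema3a response, was the class A member with the lowest levels, at 7.43, 16.1 and 14.3 CPM in iRGCs and 12.03, 10.1 and 12.6 CPM in cRGCs. The populations overlapped, and the log2 fold change was 0.13 (95% interval -0.57 to 0.82, adjusted p = 0.786 by edgeR and Benjamini-Hochberg).

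In class B, Plxnb1 was lower in iRGCs and Plxnb2 did not pass the test. Plxnb1 (chromosome 9, 109095389 to 109119917, plus strand), the receptor of Sema4d, was at 335, 369 and 318 CPM in iRGCs and at 482, 456 and 521 CPM in cRGCs, without overlap. Its log2 fold change was -0.51 with an SE of 0.105 (adjusted p = 0.00448 by edgeR and Benjamini-Hochberg), 1.43-fold higher in cRGCs with an interval of 1.21 to 1.69, and it was -0.50 (adjusted p = 0.0136) without iRGC replicate 1. Of its exonic bases, 2.68% are shared with Gm7628 on the other strand. Plxnb2 (chromosome 15, 89155549 to 89180788, minus strand), a class B receptor known from proliferating neural precursors, was at 393, 402 and 373 CPM in iRGCs against 341, 342 and 360.3 CPM in cRGCs. All 3 iRGC libraries were above the cRGC libraries, but the log2 fold change of 0.16 (SE 0.0925, 95% interval -0.05 to 0.37) had an adjusted p of 0.205 (by edgeR and Benjamini-Hochberg). On library totals without TMM it passed, with a log2 fold change of 0.37 and an adjusted p of 0.0116 (by edgeR and Benjamini-Hochberg).

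Plxnb3 (chromosome X, 73757090 to 73772514, plus strand) was barely detected. It had 0, 12 and 3 counts in iRGCs and 18, 18 and 25 counts in cRGCs, which is at most 0.807 CPM. It entered the test through its cRGC libraries alone, and its log2 fold change of -2.15 had an interval of -5.34 to 1.03 (adjusted p = 0.263 by edgeR and Benjamini-Hochberg). It is left out of the counts of members called or separated below.

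Plxnc1 (chromosome 10, 94790866 to 94944835, minus strand), the receptor of Sema7a, was at 134, 121 and 124 CPM in iRGCs and at 116, 133 and 122 CPM in cRGCs. The libraries of the populations were interleaved. Its log2 fold change of 0.04 with an SE of 0.105 (adjusted p = 0.818 by edgeR and Benjamini-Hochberg) had a 95% interval of -0.20 to 0.27, so that a difference as large as that of Plxna1 or Plxnd1 lay outside it.

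Plxnd1 (chromosome 6, 115954811 to 115995005, minus strand) was the plexin with higher levels in iRGCs. It was at 87.5, 175 and 63.6 CPM in iRGC replicates 1, 2 and 3 and at 12.03, 24.8 and 15.6 CPM in cRGCs. The lowest iRGC library was above the highest cRGC library, and the iRGC libraries spread widely among themselves (109 ± 58.4 CPM, SD, n = 3, against 17.5 ± 6.60 CPM). The log2 fold change was 2.63 with an SE of 0.398 (adjusted p = 9.74e-04 by edgeR and Benjamini-Hochberg), 6.21-fold higher in iRGCs with an interval of 3.32 to 11.6. It was 2.76 without iRGC replicate 1 (adjusted p = 0.00240) and 2.11 without iRGC replicate 2, its highest library (adjusted p = 0.00249 by edgeR and Benjamini-Hochberg).

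**Figure D1:**
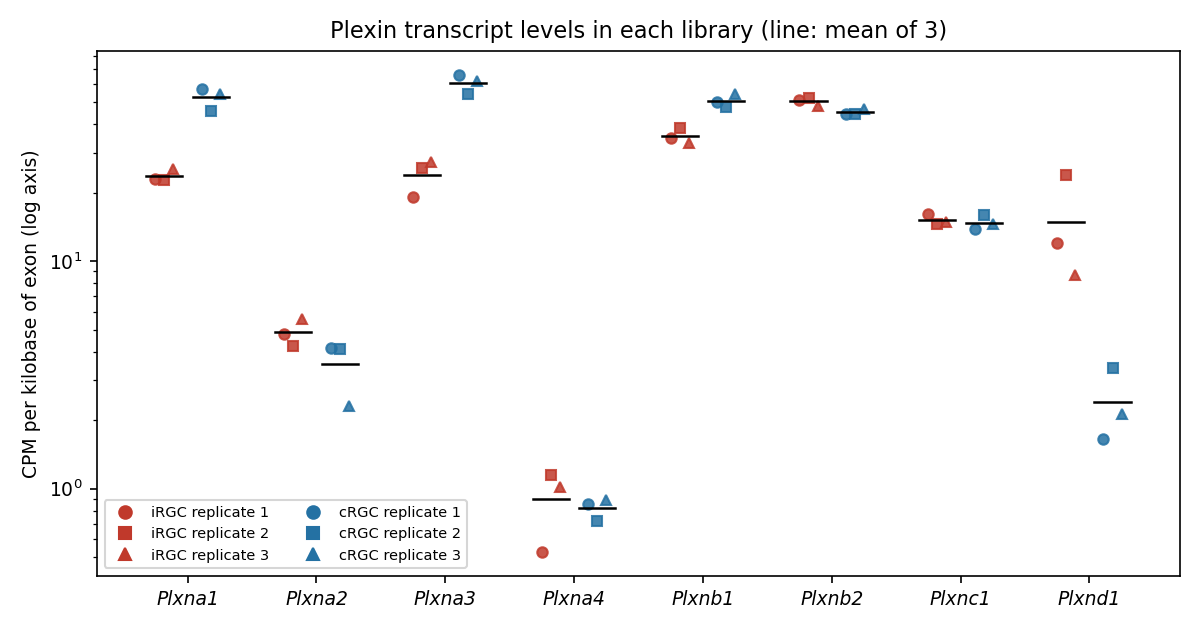
Transcript levels of 8 plexins as CPM per kilobase of exon (log axis) in each library, iRGCs in red and cRGCs in blue, with the symbol giving the replicate and the line the mean of 3. Plxnb3 (at most 0.807 CPM) is not drawn, the libraries of the populations do not overlap for Plxna1, Plxna2, Plxna3, Plxnb1, Plxnb2 and Plxnd1, and overlap for Plxnc1 and Plxna4.

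Among the 8 plexins other than Plxnb3, 4 passed the test, which is 50%, beside 46.4% of all tested genes. One was higher in iRGCs and 3 were lower, where the shares over all tested genes were 23.3% higher and 23.1% lower. As DEGs, 1 was higher and 2 were lower in iRGCs, beside 12.1% and 11.0% of all tested genes. Libraries of the populations did not overlap for 6 of the 8, beside 55.3% of all tested genes. The share of plexins called was thus near that of all genes in this comparison. The number of plexins called higher depended on TMM scaling. On library totals the median of all tested genes moved from -0.00 to 0.20, and 5100 of 7942 calls (64.2%) were higher in iRGCs in place of 3707 of 7395 (50.1%). On that scale 3 plexins (Plxna2, Plxnb2 and Plxnd1) were higher in iRGCs, and Plxna1, Plxna3 and Plxnb1 were still lower, with log2 fold changes of -0.94, -1.14 and -0.31.

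**Figure D2:**
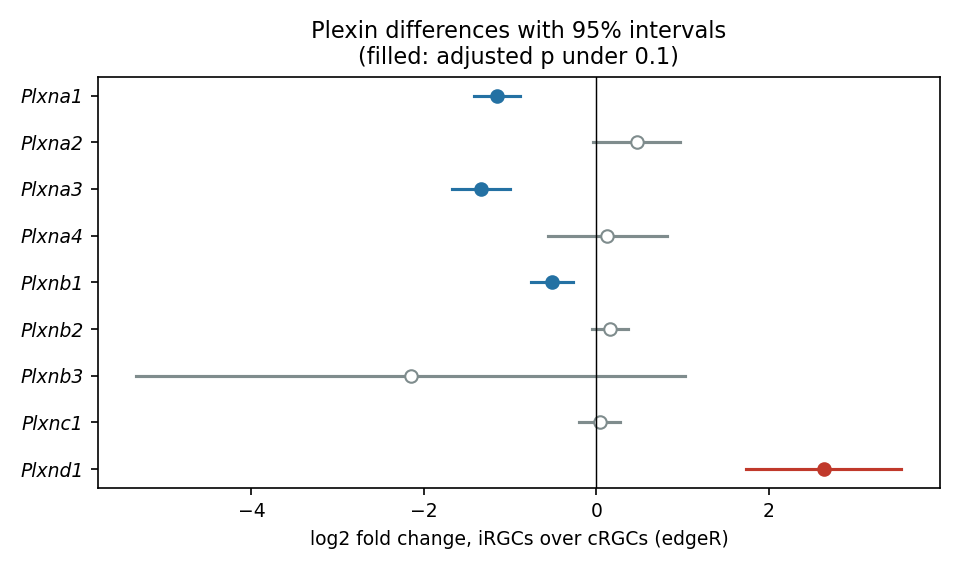
Log2 fold change of iRGCs over cRGCs for the 9 plexins from edgeR, with bars for the 95% interval. Filled points passed an adjusted p-value of 0.1, red for higher in iRGCs (Plxnd1, 2.63) and blue for lower (Plxna3, -1.34; Plxna1, -1.15; Plxnb1, -0.51), and the open points of the other members have intervals that include 0.

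The sequence just upstream of the annotated starts is shown for the plexin that was higher in iRGCs, for the class A plexin with the largest difference and for the plexin whose libraries were interleaved, so that the 3 patterns can be compared. RefSeq windows on GRCm38.p6 were at hand for 7 of the 9 plexins, and Plxna1 and Plxna4 are not among them. Each line below holds the 250 bases before the start, 5′ to 3′ on the gene's own strand, in lower case. Capitals mark the GC box, the letters GGGCGG or on the other strand CCGCCC, which the factor Sp1 is known to bind. The windows are chr6:115995006-115995255 for Plxnd1 (minus strand), chrX:74328816-74329065 for Plxna3 (plus strand) and chr10:94944846-94945095 for Plxnc1 (minus strand), and none of the 3 holds an annotated exon.
Plxnd1: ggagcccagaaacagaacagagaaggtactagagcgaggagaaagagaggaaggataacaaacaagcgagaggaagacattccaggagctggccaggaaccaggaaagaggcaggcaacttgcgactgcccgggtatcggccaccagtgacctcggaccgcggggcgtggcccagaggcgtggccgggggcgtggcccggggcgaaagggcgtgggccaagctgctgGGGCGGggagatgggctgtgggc
Plxna3: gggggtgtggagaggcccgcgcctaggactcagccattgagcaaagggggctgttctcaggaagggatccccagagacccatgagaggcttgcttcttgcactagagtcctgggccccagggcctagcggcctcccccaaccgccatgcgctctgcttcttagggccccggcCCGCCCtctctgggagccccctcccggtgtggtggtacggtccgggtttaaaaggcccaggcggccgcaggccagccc
Plxnc1: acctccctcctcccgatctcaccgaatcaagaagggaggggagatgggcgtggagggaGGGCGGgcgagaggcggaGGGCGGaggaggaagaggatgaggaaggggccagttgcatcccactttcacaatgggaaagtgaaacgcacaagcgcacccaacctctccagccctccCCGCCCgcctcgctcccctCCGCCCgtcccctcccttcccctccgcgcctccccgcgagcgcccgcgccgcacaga

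All 3 windows held a GC box, 1 in Plxnd1, 1 in Plxna3 and 4 in Plxnc1. Over the 8 plexin windows (Plxnb2 has a second start), 7 held it, beside 32.7% of 32817 RefSeq windows of the same length. The exception was Plxnb3, the member that was barely transcribed. The 3 windows were rich in CpG, with 16 for Plxnd1, 12 for Plxna3 and 22 for Plxnc1 beside a median of 6 over all windows, and their GC content was 64.8%, 68.0% and 68.8% beside a median of 52.4%. On either strand, CCTGCTG (on the other strand CAGCAGG), a core motif of Zic factors, was found in the first window of Plxnb2 alone, beside 8.45% of all windows. TAATTA, the core bound by LIM homeodomain factors such as Lhx2, was in none of the 8 plexin windows, beside 4.85% of all windows. In the printed windows the GC box was the one motif of the 3 that was found, so none overlapped another. A match or its absence describes the letters of these windows and not the binding of a factor.

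Levels of different plexins were compared per kilobase of exon. In iRGCs the order began with Plxnb2 (50.4 ± 1.93 CPM per kilobase, SD, n = 3), Plxnb1 (35.5 ± 2.70), Plxna3 (24.0 ± 4.29) and Plxna1 (23.6 ± 1.501). Plxnc1 (15.1 ± 0.818) and Plxnd1 (14.9 ± 8.00) followed, then Plxna2 (4.86 ± 0.668), Plxna4 (0.895 ± 0.326) and Plxnb3 (0.0239 ± 0.0297). The libraries of neighbours overlapped for Plxna3 with Plxna1 and for Plxnc1 with Plxnd1, and no other neighbours overlapped in iRGCs. A class B receptor thus led in each iRGC library.

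In cRGCs the order began with Plxna3 at 60.6 ± 6.04 CPM per kilobase (SD, n = 3), Plxna1 at 52.4 ± 5.94, Plxnb1 at 50.7 ± 3.45 and Plxnb2 at 45.1 ± 1.39. After a gap came Plxnc1 (14.8 ± 1.03), Plxna2 (3.52 ± 1.06), Plxnd1 (2.39 ± 0.904), Plxna4 (0.821 ± 0.0921) and Plxnb3 (0.109 ± 0.0144). The ranges of Plxna3 and Plxna1 overlapped, although Plxna3 was higher within each of the 3 libraries, and so did those of Plxna1 and Plxnb1 and those of Plxna2 and Plxnd1. By merged exon length, Plxnb2 ranked 1 in every iRGC library and 4 in every cRGC library, and Plxna3 was first in every cRGC library. Close ranks can depend on the length used. Plxnb2 has 7720 bases of merged exons and a longest transcript of 6497, and Plxna1 has 9054 and 9034.

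Summed over the 9 members, the plexin level was 161, 183 and 164 CPM per kilobase in iRGCs and 238, 216 and 237 in cRGCs, 1.36-fold higher in cRGCs, and 1.18-fold higher on library totals without TMM. The class A sum was 2.20-fold higher in cRGCs (117 ± 11.8 against 53.4 ± 5.95 CPM per kilobase, SD, n = 3), and 1.91-fold on library totals. The class B sum was 1.12-fold higher in cRGCs (95.9 ± 4.74 against 86.0 ± 4.55), a direction that turned on library totals, where it was 1.03-fold higher in iRGCs and the libraries overlapped. Within a library, where scaling between libraries plays no part, the ratio of class A to class B was 0.550, 0.593 and 0.726 in iRGC replicates 1, 2 and 3 and 1.36, 1.14 and 1.18 in cRGCs. Class B transcripts thus exceeded class A transcripts in each iRGC library, and the reverse held in each cRGC library. On the log2 scale the difference between the populations was -0.98, with p = 0.1 in the exact permutation test over the 6 libraries, two-sided, which is the smallest p that 3 libraries against 3 can give.

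As shares of the summed plexin level, Plxna1 and Plxna3 together made up 26.0%, 26.4% and 32.02% in iRGCs and 51.7%, 46.3% and 49.0% in cRGCs. Plxnb2 held 29.8% ± 1.61 in iRGCs and 19.6% ± 0.999 in cRGCs (SD, n = 3). Plxnd1 held 8.61% ± 4.03 in iRGCs and 1.05% ± 0.461 in cRGCs, and Plxnb1 held 20.97% ± 0.737 and 22.0% ± 0.902, which overlapped. The share of Plxnc1 was 8.99% ± 1.02 in iRGCs and 6.43% ± 0.814 in cRGCs, although its level was alike in the libraries of both. Exact permutation tests of the shares reached the smallest possible p of 0.1 for Plxna1, Plxna2, Plxna3, Plxnb2, Plxnc1 and Plxnd1, and for the barely detected Plxnb3 (0.129 after Benjamini-Hochberg adjustment over the 9), so none could pass 0.05 in this design.

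**Figure D3:**
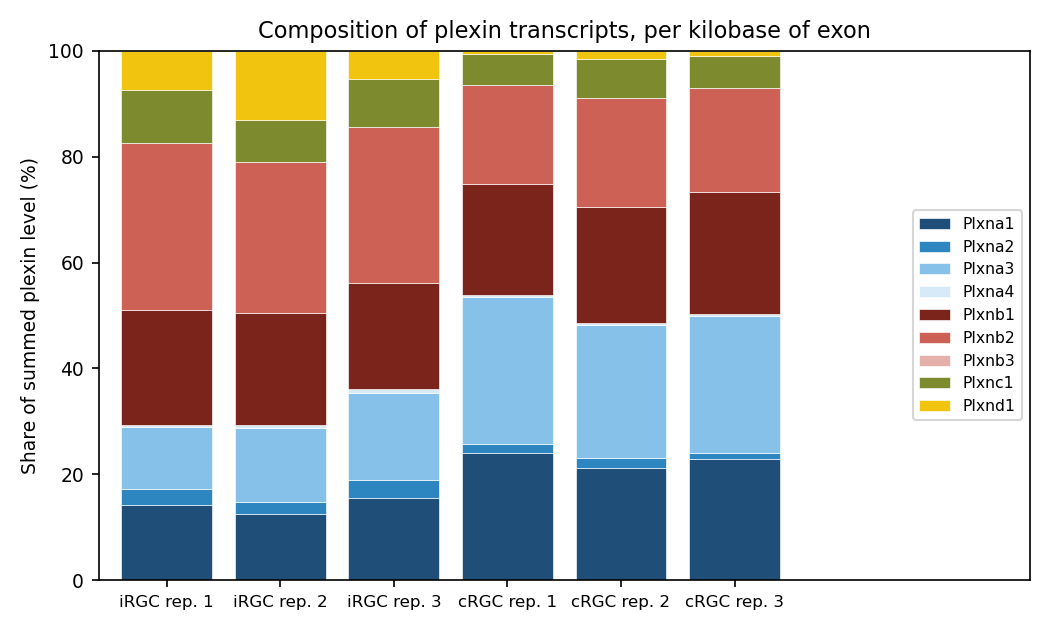
Stacked bars of each plexin's share (%) of the summed plexin level, per kilobase of exon, in each of the 6 libraries. Plxna1 and Plxna3 (the 2 largest blue segments) make up 26.0% to 32.02% in iRGCs and 46.3% to 51.7% in cRGCs, and Plxnd1 (yellow, at the top) is widest in iRGC replicate 2.

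Because Plxnd1 is abundant in blood vessels, the markers of endothelial cells were set beside it. The 12 endothelial markers had sums of 482, 777 and 437 CPM in iRGCs and 89.2, 109 and 72.0 CPM in cRGCs. The most abundant was Kdr, a VEGF receptor also made by retinal progenitors, at 366, 320 and 418 CPM in iRGCs and 83.7, 103 and 67.6 CPM in cRGCs. The other 11 markers together were at 116, 456 and 18.6 CPM in iRGCs and at 5.50, 5.87 and 4.42 CPM in cRGCs, a sum without Kdr that was formed after the values had been seen. These markers were thus highest in iRGC replicate 2, as was Plxnd1.

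The markers did not move alike in iRGC replicate 3. Cdh5, the adhesion molecule of endothelial junctions, was at 15.2, 81.3 and 0.158 CPM in the iRGC replicates and at 0 counts in each cRGC library. Pecam1 was at 9.65, 53.0 and 0.284 CPM in iRGCs and 0, 0.725 and 0 CPM in cRGCs, and the endothelial receptor gene Tie1 was at 2.70, 44.1 and 0.0631 CPM in iRGCs and at 0 counts in cRGCs. In iRGC replicate 3, Tek, Esam, Emcn and Eng were also under 0.5 CPM, and Cd34 was at 0.505 CPM. Other markers stayed above every cRGC library there, with Cldn5 at 11.8 CPM against 0.884, 2.93 and 2.19 CPM, Flt1 at 2.59 CPM against 1.15, 0.552 and 0.161 CPM and Egfl7 at 2.68 CPM against 1.499, 1.07 and 1.52 CPM. Plxnd1 was at 63.6 CPM in that library and at 12.03, 24.8 and 15.6 CPM in cRGCs. The part of endothelial cells in the Plxnd1 difference was not tested. The 8 markers of mural cells, the cells that wrap capillaries, had sums of 135, 276 and 108 CPM in iRGCs and 20.8, 31.2 and 22.8 CPM in cRGCs, led by Notch3. Several genes of both lists had enough counts to be tested through the iRGC libraries alone, so no count of calls is given.

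**Figure D4:**
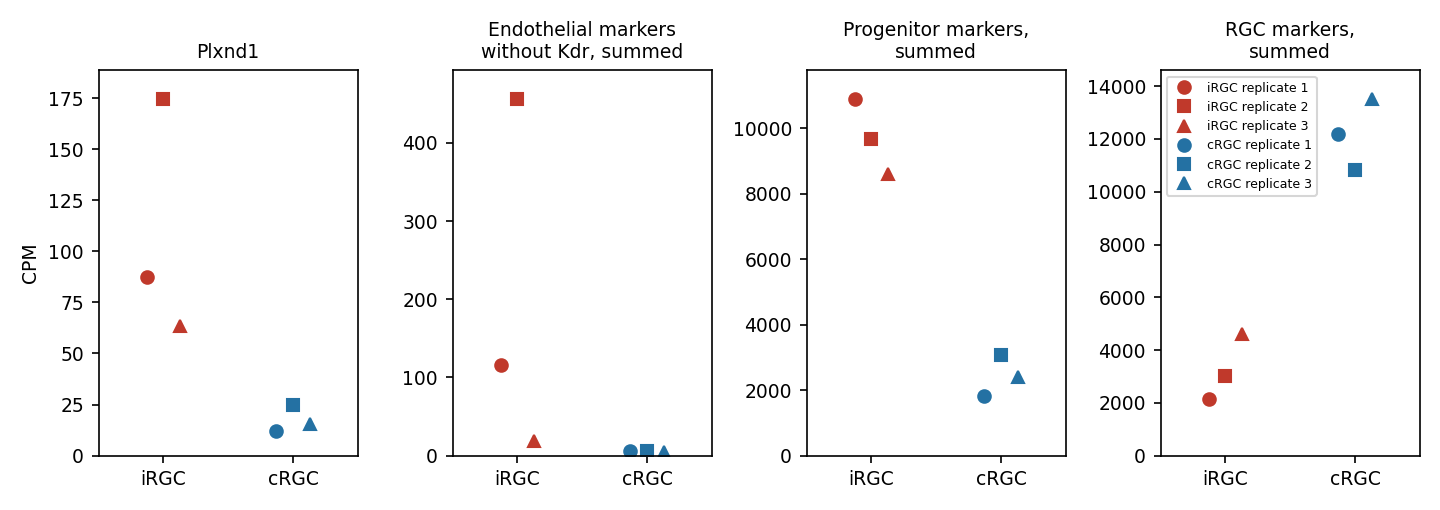
CPM of Plxnd1 and summed CPM of the endothelial markers other than Kdr, of the retinal progenitor markers and of the RGC markers in each library (linear axes from 0, symbol for the replicate). iRGC replicate 2 is highest for Plxnd1 (175 CPM) and for the endothelial markers (456 CPM), and iRGC replicate 3 has 18.6 CPM of these markers and 63.6 CPM of Plxnd1.

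The ligands of the plexins were mostly lower in iRGCs where they are bound to the membrane. Of 13 membrane-bound semaphorins, 11 were lower in iRGCs, 2 were higher and none missed the test, with a median log2 fold change of -1.15 beside -0.00 over all tested genes, of which 23.1% were lower and 23.3% higher. All 4 class 6 semaphorins, the direct ligands of class A plexins, were lower. Sema6c was at 88.2, 87.7 and 112 CPM in iRGCs and 273, 222 and 239.6 CPM in cRGCs (log2 fold change -1.35, SE 0.135, adjusted p = 2.22e-04 by edgeR and Benjamini-Hochberg). Sema6b was lower by -1.46 (SE 0.190) and Sema6a by -1.23 (SE 0.168) on the log2 scale. Sema6d, the Plxna1 ligand of the chiasm, was at 26.8, 58.5 and 41.3 CPM in iRGCs and 102, 86.4 and 67.2 CPM in cRGCs (log2 fold change -1.01, SE 0.269, adjusted p = 0.0157 by edgeR and Benjamini-Hochberg).

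The ligand of Plxnb1 went the other way from its receptor. Sema4d was at 168, 103 and 118 CPM in iRGCs and at 23.8, 46.2 and 30.1 CPM in cRGCs, without overlap (log2 fold change 1.96, SE 0.267, adjusted p = 6.00e-04 by edgeR and Benjamini-Hochberg). Sema5b, a transmembrane semaphorin that binds class A plexins in the retina, was the other one with higher levels in iRGCs (log2 fold change 2.62, SE 0.395, adjusted p = 9.68e-04 by edgeR and Benjamini-Hochberg). Sema7a, the ligand of Plxnc1, was at 16.2, 26.6 and 25.5 CPM in iRGCs and at 53.9, 47.9 and 50.2 CPM in cRGCs (log2 fold change -1.15, SE 0.198, adjusted p = 0.00179 by edgeR and Benjamini-Hochberg).

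Of the 7 secreted class 3 semaphorins, 2 were lower in iRGCs, 1 was higher and 4 did not pass the test (median log2 fold change -0.23), which is near the 23.1% lower and 23.3% higher of all tested genes. Sema3a, a ligand of Nrp1 with class A plexins, was at 21.2, 31.9 and 39.98 CPM in iRGCs and 97.0, 97.8 and 128 CPM in cRGCs (log2 fold change -1.79, SE 0.229, adjusted p = 4.65e-04 by edgeR and Benjamini-Hochberg). Sema3e, the ligand of Plxnd1, was at 21.2, 10.9 and 20.1 CPM in iRGCs and at 87.5, 75.2 and 20.7 CPM in cRGCs. Its log2 fold change was -1.81 with an SE of 0.480 (adjusted p = 0.0154 by edgeR and Benjamini-Hochberg), but cRGC replicate 3 lay within the range of the iRGC libraries. Sema3g was higher in iRGCs (log2 fold change 1.69, SE 0.574, adjusted p = 0.0431), a call that was lost under limma voom and without any one of iRGC replicate 2, cRGC replicate 2 and cRGC replicate 3, with adjusted p-values up to 0.196 (edgeR and limma, Benjamini-Hochberg).

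Among 10 co-receptors, 6 were lower in iRGCs, 3 were higher and 1 did not pass the test (median log2 fold change -0.64), beside 23.1% lower and 23.3% higher of all tested genes. The neuropilin and L1-family adhesion molecules were on the lower side. Nrp1, through which Sema3a reaches class A plexins, was at 66.1, 88.2 and 61.6 CPM in iRGCs and at 234, 181 and 240.9 CPM in cRGCs (log2 fold change -1.60, SE 0.169, adjusted p = 2.45e-04 by edgeR and Benjamini-Hochberg). Nrp2 was lower too (log2 fold change -0.75, SE 0.268, adjusted p = 0.0528), but its call was lost on library totals and without any one of iRGC replicates 1 and 2 and cRGC replicates 1 and 2, with adjusted p-values up to 0.139 (by edgeR and Benjamini-Hochberg). Nrcam, the partner of Plxna1 in crossing axons, was at 251, 212 and 302 CPM in iRGCs and 401, 372 and 331 CPM in cRGCs (log2 fold change -0.53, SE 0.144, adjusted p = 0.0173 by edgeR and Benjamini-Hochberg). Chl1 and L1cam, related adhesion molecules, changed by -2.37 (SE 0.264) and -2.098 (SE 0.249) on the log2 scale.

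The 3 co-receptors with higher levels in iRGCs were receptor tyrosine kinases. Kdr, a partner of Plxnd1, had a log2 fold change of 2.12 with an SE of 0.172 (adjusted p = 2.05e-04 by edgeR and Benjamini-Hochberg). Erbb2 and Met, partners of class B plexins, were higher by 2.49 (SE 0.345) and 2.57 (SE 0.432) on the log2 scale. Mst1r, a kinase receptor related to Met that also pairs with class B plexins, was lower in iRGCs, at 0.836, 3.31 and 2.96 CPM against 15.5, 10.8 and 21.3 CPM.

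Of 23 small GTPases and their regulators, 6 were higher in iRGCs, 9 were lower and 8 did not pass the test (median log2 fold change 0.06), beside 23.3% higher and 23.1% lower of all tested genes. Rhod, a GTPase that binds plexins, had a log2 fold change of 2.33 with an SE of 0.597, and Mras, a relative of Rras, one of -1.11 with an SE of 0.187. Rras, a substrate of the plexin GTPase-activating domain, had one of 1.15 (SE 0.425, adjusted p = 0.0603), and Rnd1, a GTPase that binds plexins and opens them to Rras, had one of -1.55 (SE 0.528, adjusted p = 0.0440 by edgeR and Benjamini-Hochberg). Rras and Rnd1 are at low levels, and each call was lost without the filter on low counts, without iRGC replicate 2 and without any single cRGC library, that of Rras also with the replicate block, with adjusted p-values up to 0.209 for Rras and 0.118 for Rnd1 (by edgeR and Benjamini-Hochberg). Arhgef11 and Arhgef12, the exchange factors that link class B plexins to RhoA, were lower in iRGCs by -0.54 (SE 0.0960) and -0.49 (SE 0.115) on the log2 scale.

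Of 20 cytoskeletal effectors of semaphorin signalling, 15 were lower in iRGCs, 2 were higher and 3 did not pass the test (median log2 fold change -0.90), beside 23.1% lower and 23.3% higher of all tested genes. Mical3, an enzyme of the family that oxidizes actin downstream of class A plexins, changed by -1.14 (SE 0.116) on the log2 scale. Dpysl5, a member of the CRMP family of collapsin response mediators, fell by 1.66 (SE 0.176), and Cdk5r1, the activator of the kinase that phosphorylates CRMPs, by 1.59 (SE 0.168). The RGC markers were lower in the same libraries, and their part in these values was not tested.

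**Figure D5:**
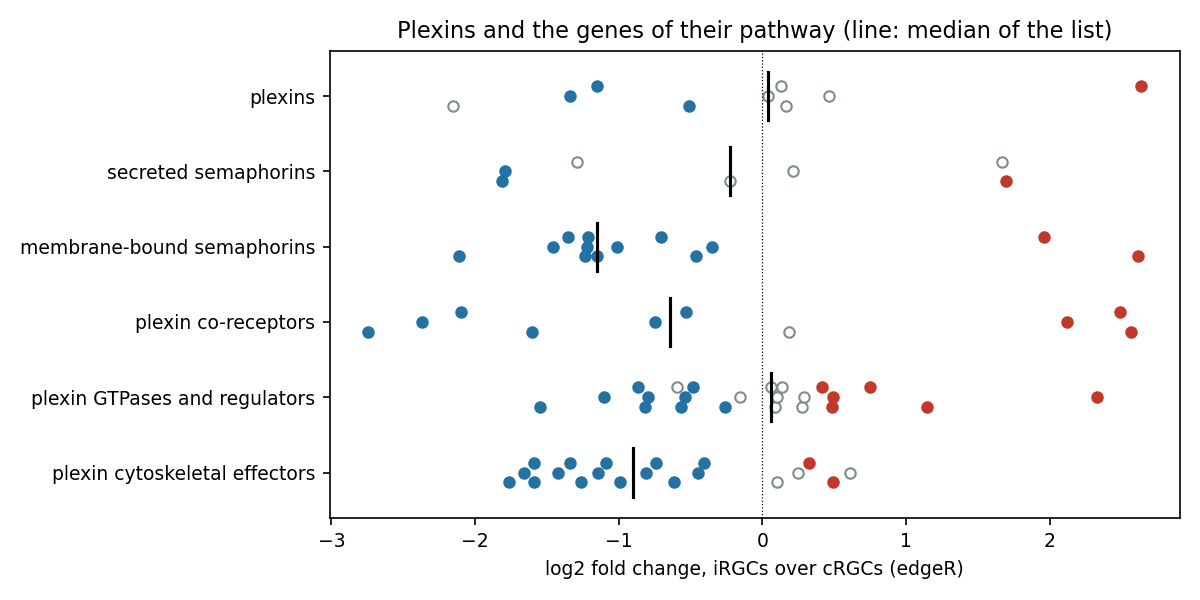
Log2 fold change of iRGCs over cRGCs (edgeR) for each tested gene of the plexins and of 5 lists of ligands, co-receptors and intracellular partners, with a line at the median of each list. Filled points passed an adjusted p-value of 0.1 (red higher, blue lower in iRGCs), and the medians of the membrane-bound semaphorins (-1.15) and of the cytoskeletal effectors (-0.90) lie to the left of 0.

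The genes whose pattern over the 6 libraries was nearest to a plexin were sought among 11533 genes with a mean of at least 5 CPM, by the Euclidean distance between centred log2(CPM + 0.5) values. For Plxna1, Coro7 (distance 0.140) and Gpr85 (0.144) were among the nearest, and Plxna3 ranked 345. Those of Plxna3 were Ncs1 (0.102), Cers4 (0.106) and Faxc (0.117), and Plxna1 ranked 263. Plxnd1 had no neighbour as near, with Fkbp10 at a distance of 0.327, Lama5 at 0.504 and Tcf7 at 0.540. The points share their libraries, so these distances describe the pattern and carry no test.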

How the data were processed

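RNA-seq libraries of sorted E16.5 cells were analysed, 3 of iRGCs and 3 of cRGCs, grouped by their GEO labels. The 13 ATAC-seq samples were not analysed here. Per the methods, reads were mapped to mm10 by HISAT2 2.1.0 and assigned to Ensembl GRCm38 genes by HTSeq 0.11.1, and the authors deposited raw counts per gene, 1 table per library. Depth was 28193178 to 33638083 counts on genes. HTSeq tallies that name no gene (8.09% to 16.8% of tallied alignments without a feature, 0.618% to 0.649% ambiguous and 25.9% to 33.0% not unique) stayed out of library sizes and tests. Whether counting used the strand is not stated. Symbols, positions and merged exon lengths came from GENCODE M21 (GRCm38), which matched 46574 of 47069 identifiers. No libraries of a population agreed within sampling noise (chi-square per degree of freedom 25.2 to 69.4).

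The test of the counts used edgeR 4.0.16 in R 4.3.3 (filterByExpr, TMM, quasi-likelihood, no block, 15941 genes), with a biological coefficient of variation of 36.3%. The TMM factors of iRGCs (1.03 to 1.10) lay above those of cRGCs (0.921 to 0.952). The SE is the size of the log2 fold change over the root of the F statistic. With 3 libraries per population, a small difference in a gene of low count could not be detected. The study used DESeq2 1.26.0 at a false discovery rate of 10%. Alternatives were other scaling factors, DESeq2 1.42.0, limma voom 3.58.1, other filters, protein-coding genes alone, an adjusted p-value under 0.05, the fold change tested against 1, each library left out and the replicate number as a block. A fit on library totals without TMM was added after seeing the data. Shares and class ratios were compared with exact permutation tests in scipy 1.17.1, and figures were drawn with matplotlib 3.10.9.

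All 9 plexins are named, and from each pathway list the DEGs with the lowest adjusted p-values, at most 3 in each direction, as well as Sema6d, Nrcam, Nrp1, Nrp2, Sema3e, Sema7a and Sema4d. Marker lists name their most abundant gene, and the 3 genes nearest in pattern were sought for Plxna1, Plxna3 and Plxnd1, of which 1 is not reported here. Endothelial genes other than Kdr and mural cell genes other than Notch3 were chosen after their values were seen. The same holds for optic stalk astrocyte genes other than Slc1a3 and ciliary margin genes other than Ccnd2. It also holds for horizontal cell genes other than Onecut2, and for Mst1r, Arhgef11 and Arhgef12. The members and the lists were chosen with earlier results of these data known. Promoter sequences are from RefSeq (GRCm38.p6).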

Additional observations from a re-analysis of the deposited data

How the results depend on the processing

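Plxna1, Plxna3, Plxnb1 and Plxnd1 kept their direction and passed the test under each of 15 alternatives, and with single libraries left out their log2 fold changes lay between -1.22 and -1.09, -1.45 and -1.20, -0.57 and -0.45, and 2.11 and 2.99. The number of plexins higher in iRGCs was 1 in the reported fit, and it was 2, with Plxna2, under limma voom, without the filter on low counts and with at least 10 counts in every library. With a library left out it lay between 1 and 2. On library totals without TMM, an alternative chosen after seeing the data, it was 3, and plexin DEGs lower in iRGCs were 1, secreted semaphorins higher in iRGCs 2 in place of 1, and GTPases and regulators higher in iRGCs 10 in place of 6. The summed plexin log2 ratio of iRGCs over cRGCs was -0.24 with CPM of the library total, in place of -0.44. The number of plexin DEGs lower in iRGCs was 2, and 1 when the fold change was tested against 1, which left 1914 DEGs among all genes in place of 3688. The log2 fold change of Plxna4, which did not pass, lay between -0.0878 (without iRGC replicate 2) and 0.39 with a library left out, and that of Plxnc1 between -0.0144 (without cRGC replicate 1; -0.00826 without iRGC replicate 1) and 0.11. The causes were not tested. Of the secreted semaphorins, 0 in place of 1 were higher in iRGCs under limma voom and 0 to 1 with a library left out. Of the cytoskeletal effectors, 1 in place of 2 were higher with the replicate block, and 1 to 2 with a library left out. The class B sum turned direction on library totals without TMM. Plxna2 passed under 5 alternatives and Plxnb2 under 1. The other plexin values kept their direction and call, and the other counts of plexins and lists stayed within 1.5 times. Plxnb3 could not be tested with at least 10 counts in every library. Replicate numbers are shared between the populations, and the deviations of same-numbered libraries correlated at -0.01, -0.04 and -0.07. Whether same-numbered libraries were handled together is not stated, and these correlations cannot settle it. With the replicate block, 6751 genes passed in place of 7395, and no plexin call changed.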

Other observations

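Markers of other cells of the eye were also read in these libraries. All 10 markers of neurogenic precursors, led by Hes6, were higher in iRGCs (23.3% of all tested genes were), with summed levels of 1348, 1672 and 1214 CPM in iRGCs against 288, 476 and 456 CPM in cRGCs. Markers of photoreceptor precursors, led by Neurod1, summed to 1068, 830.0 and 840.2 CPM against 154, 274 and 202 CPM. Of 8 amacrine cell markers, led by Tfap2b, 7 were higher in iRGCs. The 5 horizontal cell markers, led by Onecut2, summed to 265, 284 and 234 CPM in iRGCs and 240.2, 250.4 and 393 CPM in cRGCs. Their members did not move alike. Prox1 was at 88.0, 67.5 and 93.6 CPM in iRGCs and 34.0, 45.1 and 31.0 CPM in cRGCs. It was higher in iRGCs (log2 fold change 1.18, adjusted p = 0.00110 by edgeR and Benjamini-Hochberg). The other members did not pass the test, with a log2 fold change of -0.56 for Onecut2 and 0.96 for Lhx1. The 8 markers of the ciliary margin, led by Ccnd2, had sums of 72.5, 277 and 37.6 CPM against 27.7, 25.8 and 44.4 CPM. The sum of iRGC replicate 2 stood apart, and that of replicate 3 lay within the cRGC range. Bmp7 and Tgfb1i1, which did not pass the test, made up most of the sum in each cRGC library. In iRGC replicate 3, Ccnd2 (9.81 CPM against 0.231, 2.55 and 5.68 CPM), Gja1, Wfdc1, Msx1 and Otx1 lay above every cRGC library. Bmp7 lay under every cRGC library there (8.29 CPM against 11.9, 12.2 and 25.2 CPM), and Bmp4 and Tgfb1i1 lay within their range. Microglia markers (Csf1r most abundant) summed to 17.8, 28.6 and 20.2 CPM in iRGCs and 1.31, 4.87 and 1.68 CPM in cRGCs. Erythroid markers, led by Hbb-bs, summed to 12.2, 94.7 and 15.7 CPM against 0, 5.49 and 0.290 CPM. Fibroblast markers (Col1a2 most abundant, Lum at 0 counts) summed to 17.7, 27.1 and 9.21 CPM in iRGCs and 8.73, 10.1 and 10.2 CPM in cRGCs, and pigment epithelium markers (Mitf most abundant) to 7.11, 7.76 and 3.50 CPM and 1.69, 4.28 and 2.58 CPM. Markers of optic stalk astrocytes, led by Slc1a3, summed to 257, 178 and 242 CPM in iRGCs and 36.9, 68.6 and 45.7 CPM in cRGCs. Slc1a3 and Fabp7 made up most of the sum in each library, and the other members did not follow them. Aldh1l1 was lower in iRGCs (log2 fold change -1.09, adjusted p = 0.0398 by edgeR and Benjamini-Hochberg). Pdgfra did not pass the test (log2 fold change -0.60), and Pax2 and Gfap were at most at 0.538 CPM. No calls are counted in lists of which genes had too few counts to be tested or could be tested through one population alone.

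The counts of Plxna1 and Plxna3 stood in nearly one ratio in cRGCs, at 0.993, 0.971 and 1.01, and at 1.38, 1.02 and 1.07 in iRGCs, where replicate 1 had the higher value. The 3 antisense genes Plxna4os1, Plxna4os2 and Plxna4os3 had 0 counts in all 6 libraries.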
